A study of Mus musculus with 18 samples.

Results

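The genes described here are 9 secreted trophic factors, chosen by name from the deposited count table and followed through all 6 conditions: *Bdnf*, *Gdnf*, *Cntf*, *Lif*, *Il6*, *Fgf2*, *Igf1*, *Ptn* and *Mdk*, out of 54838 genes in the table. The cells were neural stem cells from the ventricular zone of wild-type C57BL/6J mouse embryos at E14, each isolate taken from 1 brain. They were grown as free-floating neurospheres (NSPs) with EGF and B27 supplement, or plated in serum without either, conditions used to obtain astrocytes, for 24 h, 72 h or 1 week. At 24 h and 72 h a parallel set of cultures was differentiated with TNF, an inflammatory cytokine, at 50 ng/ml. Each condition had 3 RNA-seq libraries (18 in all), prepared from total RNA depleted of ribosomal RNA. The study states that its data, unless marked otherwise, stem from 3 or more independent biological experiments, without naming these libraries. The labels number the replicates and do not say that they were separate cultures, so p-values measure the spread between these libraries, which may be partly technical. RNA integrity varied widely by the study's account and is not given per library, so its part in the results was not tested.

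Trophic factors are secreted proteins that keep neurons and glia alive and guide their growth by binding receptors on the cell surface. BDNF is a neurotrophin that acts through TrkB, and GDNF acts through GFRα1 with the RET kinase. CNTF, LIF and IL-6 share the receptor subunit gp130, which signals through JAK and STAT3, a route known for switching on astrocyte genes in neural precursors. FGF2 and IGF1 act through receptor tyrosine kinases, whereas pleiotrophin (*Ptn*) and midkine (*Mdk*) form a small family of heparin-binding proteins that bind the receptor phosphatase PTPRZ1.

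*Ptn* was by far the most abundant and fell from 1890 to 137 CPM (read counts scaled to the size of each library) by 72 h, whereas *Igf1*, *Bdnf* and *Fgf2* rose. *Gdnf* and *Lif*, both at low levels, were called higher with TNF at 24 h, and *Gdnf* also changed with differentiation. Both TNF calls were lost when certain single libraries were left out, that of *Lif* more often. *Cntf* passed no test. *Il6* and *Mdk* were too low to test.

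The sequences just upstream of *Lif*, *Gdnf* and *Il6* are shown because the first 2 genes are those called higher with TNF at 24 h, and *Il6* is a cytokine gene well known to respond to TNF in other cells but had almost no reads here. Each run is the 250 bases before a RefSeq transcript start on GRCm38.p6, read 5′ to 3′ on the + strand. Capitals mark matches, on either strand, to the κB consensus (the binding sequence of NF-κB) or to the AP-1 motif TGANTCA.
Lif, chr11:4257318-4257567: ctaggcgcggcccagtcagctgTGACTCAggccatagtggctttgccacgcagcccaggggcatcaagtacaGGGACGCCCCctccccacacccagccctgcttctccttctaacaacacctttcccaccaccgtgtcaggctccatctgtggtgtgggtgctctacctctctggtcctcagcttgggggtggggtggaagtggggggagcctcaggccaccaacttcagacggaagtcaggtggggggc
Il6, chr5:30012864-30013113: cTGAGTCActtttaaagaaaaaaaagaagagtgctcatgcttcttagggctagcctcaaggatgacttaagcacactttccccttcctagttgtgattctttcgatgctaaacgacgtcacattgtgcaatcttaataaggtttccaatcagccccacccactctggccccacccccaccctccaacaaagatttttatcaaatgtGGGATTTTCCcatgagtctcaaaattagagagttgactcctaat
Gdnf, chr15:7809798-7810047: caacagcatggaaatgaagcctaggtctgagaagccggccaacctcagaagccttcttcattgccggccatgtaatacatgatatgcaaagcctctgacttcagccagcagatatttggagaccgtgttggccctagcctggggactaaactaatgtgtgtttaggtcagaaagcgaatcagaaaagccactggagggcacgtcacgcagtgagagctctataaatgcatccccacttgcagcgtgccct
Gdnf, second start, chr15:7813477-7813726: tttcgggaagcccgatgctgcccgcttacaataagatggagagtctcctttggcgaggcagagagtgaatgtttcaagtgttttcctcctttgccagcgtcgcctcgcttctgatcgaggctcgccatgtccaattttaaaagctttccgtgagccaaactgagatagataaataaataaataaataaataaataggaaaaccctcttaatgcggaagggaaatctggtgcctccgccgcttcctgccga
*Lif* and *Il6* each held 1 κB and 1 AP-1 match, and the 2 *Gdnf* windows held no match to these motifs or to the STAT motif TTCNNNGAA or the CRE motif TGACGTCA. Among 32851 windows of the same length in the RefSeq table, 7.25% held a κB match, 6.75% an AP-1 match, 7.02% a STAT match and 1.55% a CRE match. A match describes the letters only. Of the 9 factors 8 had a promoter entry in the table, and *Mdk* had none. *Igf1* and *Cntf* each held 1 AP-1 match, 3 of the 7 *Bdnf* windows held a match, and those of *Fgf2* and *Ptn* held none.

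The libraries held from 12509693 to 22549627 counts, and 20067 genes passed edgeR's filter on low counts, 7 of the 9 factors among them. *Gdnf* exceeded the filter's cutoff of 0.595 CPM in all 3 libraries of only 2 conditions, both with TNF, and *Lif* in 3 conditions, so these genes were testable through the conditions in which they were high. The astrocyte markers *Gfap* and *Aqp4* were detected in every library, and *Gfap* went from 27.1 CPM in NSPs to 2430 at 72 h and 63.4 at 1 week. The summed level of 8 astrocyte markers ranged from 5130 to 5360 CPM in NSPs and from 2680 to 3250 CPM at 1 week, so the marker list as a whole did not set the 1 week cultures above NSPs. Within the TNF conditions the replicates numbered 1 stood apart in *Gfap*, with 1870 CPM at 24 h against a lowest value of 463, and 1020 CPM at 72 h against a lowest value of 217. Values without these libraries are given beside TNF differences that they moved. In bulk RNA, fewer cells of a type and less RNA per cell cannot be told apart.

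**Figure D1:**
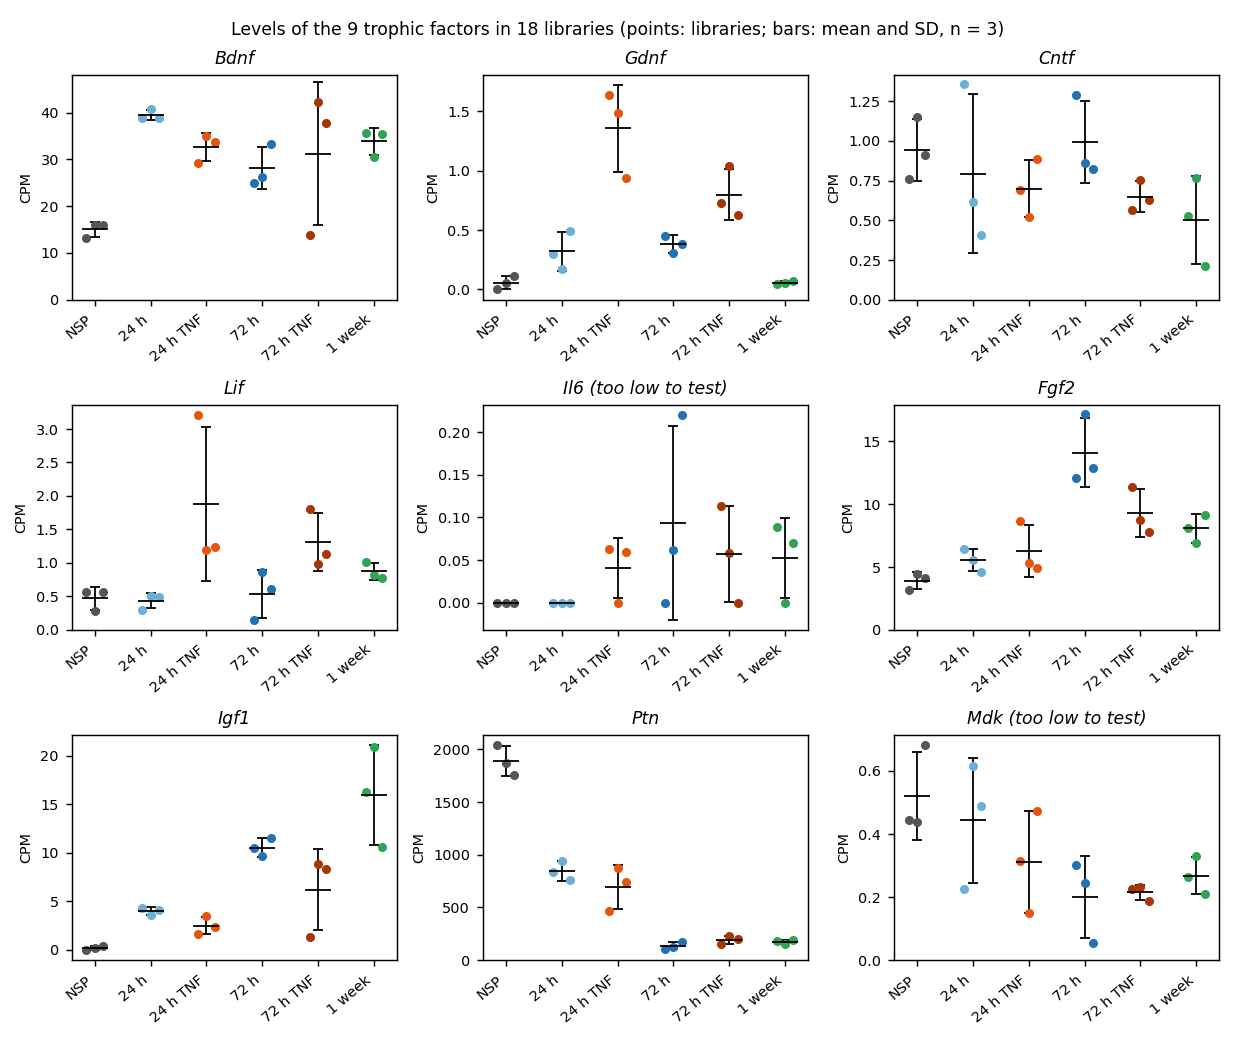
Level in CPM (linear axis, own scale in each panel) of each factor in the 18 libraries by condition. Points are libraries, the horizontal bar is the mean and the whiskers are the SD (n = 3). *Ptn* fell from 1890 CPM in NSPs to 137 at 72 h, *Igf1* reached a mean of 16 CPM at 1 week, and *Gdnf* and *Lif* were highest at 24 h with TNF.

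*Ptn* was the factor with the most reads, and its level dropped as the cells left the neurosphere state. *Ptn* (ENSMUSG00000029838, GRCm38 6:36714929-36810220, minus strand) was at 2040, 1870 and 1760 CPM in the NSP libraries, at 835, 945 and 761 CPM at 24 h, and at 109, 125 and 176 CPM at 72 h. At 1 week it was at 185, 151 and 187 CPM. The NSP, 24 h and 72 h libraries did not overlap, whereas those of 72 h and 1 week did. Against NSPs, *Ptn* fell by 1.16 on the log2 scale at 24 h (SE 0.21, adjusted p = 0.000168 in edgeR's quasi-likelihood test with Benjamini-Hochberg adjustment over all genes, used for every adjusted p here), by 3.79 at 72 h (adjusted p = 1.72e-10) and by 3.44 at 1 week (adjusted p = 3.91e-10). These 3 comparisons share the NSP libraries. Between 24 h and 72 h it fell by 2.63 (SE 0.22, adjusted p = 1.69e-07), and from 72 h to 1 week the difference of 0.35 (SE 0.21) did not pass (adjusted p = 0.39).

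*Ptn* also fell between 24 h and 72 h in the presence of TNF. With TNF the libraries were at 465, 874 and 741 CPM at 24 h and at 155, 227 and 196 CPM at 72 h, a fall of 1.85 on the log2 scale (SE 0.21, adjusted p = 2.31e-05). Each set overlapped with the untreated libraries of its own time. The difference from untreated cells was -0.29 at 24 h (95% interval -0.69 to 0.12) and 0.49 at 72 h (0.09 to 0.90, adjusted p = 0.145). Without 24 h TNF replicate 1, the lowest library of that time, the 24 h difference was -0.09 (adjusted p = 0.916). The 72 h difference was 0.62 (adjusted p = 0.0292) without both TNF replicates numbered 1, and with no filter on low counts it was called at 0.51 (adjusted p = 0.0196). The difference between the TNF changes at 72 h and 24 h was 0.78 for *Ptn* (adjusted p = 0.346), and it was called with no filter on low counts (0.80, adjusted p = 0.0218). The fit with no filter estimates the spread together with the genes too low to test, out of 54838, so its adjusted p-values are not like the others.

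*Mdk*, the other member of the family (ENSMUSG00000027239, 2:91929805-91932297, minus strand), had from 1 to 12 counts per library. The libraries held 7, 8 and 12 counts in NSPs, 3, 11 and 6 at 24 h, 4, 4 and 1 at 72 h, and 6, 6 and 3 at 1 week. With TNF they held 5, 2 and 8 counts at 24 h and 4, 4 and 3 at 72 h. All conditions next to each other in level overlapped. The summed counts gave a 72 h to NSP ratio of 0.36, with a 95% interval of 0.149 to 0.789 that covers counting error only. The transcript most like *Mdk* belongs to the pseudogene *Mdk-ps1*, with 89.8% identity over 334 aligned bases, and that gene had 2 to 14 counts, so reads fitting both copies are uncertain. How such reads were counted is not given in the sources used here.

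*Igf1*, which encodes a growth factor acting on cell growth and survival, went from near 0 to the second highest CPM of the rising factors by 1 week. *Igf1* (ENSMUSG00000020053, 10:87858265-87937042, plus strand) had 0, 3 and 7 counts in the NSP libraries and 57, 64 and 50 counts at 24 h. In CPM it was at 4.31, 3.58 and 4.07 at 24 h, at 10.5, 9.63 and 11.5 at 72 h, and at 16.3, 20.9 and 10.6 at 1 week. The NSP, 24 h and 72 h libraries did not overlap, and those of 72 h and 1 week did. The ratio of summed counts to NSPs was 20.3 at 24 h (95% counting interval 10.8 to 43.1), 54.6 at 72 h (29.4 to 115) and 84.5 at 1 week (45.7 to 177).

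All 3 rises of *Igf1* over NSPs passed the test, with log2 changes of 4.31 (SE 0.71, adjusted p = 6.82e-05), 5.72 (SE 0.67, adjusted p = 9.81e-07) and 6.32 (SE 0.67, adjusted p = 2.08e-07). The further rise from 24 h to 72 h was 1.41 (SE 0.47, adjusted p = 0.033), but it did not pass when any of these 6 libraries was left out (adjusted p from 0.0535 to 0.0966) or with DESeq2 (adjusted p = 0.0518). From 72 h to 1 week the difference of 0.60 did not pass (adjusted p = 0.51). *Igf1* is also expressed by microglia, fibroblasts and mural cells, so markers of those cells were read beside it. Of 10 microglia and macrophage markers, 7 had fewer than 10 counts in every library, *C1qa* and *C1qb* were at 0 throughout, and the summed level was 3.93 to 6.03 CPM in NSPs, 4.86 to 6.27 CPM at 24 h and 3.27 to 5.32 CPM at 1 week. Of the 3 tested markers *P2ry12* passed, at 24 h alone of the 3 times, with 2.17 against 0.853 CPM in NSPs (adjusted p = 0.00963), and it was at 0.907 CPM at 1 week. The summed level of 8 fibroblast and mural markers went from 4.10 to 10.6 CPM in NSPs to 325 to 409 CPM at 1 week, nearly all of it *Acta2* (smooth muscle actin), while *Col1a1*, *Col1a2*, *Dcn* and *Lum* stayed between 0 and 11 counts. *Rgs5*, a mural cell marker and the other tested member of that list, was at 0.0591 CPM in NSPs, 1.32 CPM at 24 h, 2.49 CPM at 72 h and 0.309 CPM at 1 week, and both tested markers passed as higher at all 3 times. The part of these markers in the rise of *Igf1* was not tested.

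With TNF, *Igf1* was at 1.64, 3.43 and 2.36 CPM at 24 h and at 1.35, 8.82 and 8.32 CPM at 72 h. At both times every TNF library lay below every untreated one. The differences were -0.69 (95% interval -1.68 to 0.29, adjusted p = 0.624) and -0.78 (-1.66 to 0.10, adjusted p = 0.29), neither past the threshold. The 72 h difference was -0.30 (adjusted p = 0.666) without 72 h TNF replicate 1, and it was called with no filter on low counts (-0.77, adjusted p = 0.0466). Between 24 h and 72 h of TNF the difference was 1.32 (adjusted p = 0.0832), and without the 72 h TNF replicate 1, the lowest library, it was 1.83 (adjusted p = 0.00175). With no filter on low counts this rise was called at 1.35 (adjusted p = 3.88e-05). The log2 change hardly moved from 1.32, and as for *Ptn* the adjusted p-values of the fit with no filter are not like the others.

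*Bdnf*, the neurotrophin, rose by 24 h and was above NSPs at all 3 times. *Bdnf* (ENSMUSG00000048482, 2:109674700-109727007, plus strand) was at 13.1, 16 and 16 CPM in NSPs and at 38.8, 40.8 and 38.9 CPM at 24 h. It was at 25, 26.3 and 33.4 CPM at 72 h and at 35.6, 30.6 and 35.4 CPM at 1 week. Every differentiating library without TNF lay above every NSP library. The log2 changes from NSPs were 1.39 at 24 h (SE 0.26, adjusted p = 0.00026), 0.91 at 72 h (adjusted p = 0.00649) and 1.17 at 1 week (adjusted p = 0.000867). The 72 h libraries lay below those of 24 h, with a difference of -0.48 (adjusted p = 0.189) that was called in a fit of these 2 conditions alone (adjusted p = 0.0135). The 24 h level was the highest of the 6 conditions and its libraries lay above those of 1 week, the next in order, while 1 week, 24 h TNF, 72 h TNF and 72 h overlapped each with the next.

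*Bdnf* with TNF was at 29.3, 35.0 and 33.7 CPM at 24 h and at 13.8, 42.2 and 37.7 CPM at 72 h. The 72 h TNF replicate 1 lay at the level of NSPs, and the other 2 lay above all untreated libraries of that time. The TNF difference was -0.27 at 24 h (95% interval -0.77 to 0.23) and 0.14 at 72 h (-0.36 to 0.64), neither past the threshold. Without the 72 h TNF replicate 1, the difference at 72 h was 0.50 (adjusted p = 0.045). An antisense gene overlaps 14.4% of the *Bdnf* exon bases and had 0 to 2 counts.

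*Fgf2*, a growth factor for neural stem cells and glia, was highest at 72 h. *Fgf2* (ENSMUSG00000037225, 3:37348346-37410108, plus strand) was at 3.17, 4.45 and 4.15 CPM in NSPs and at 6.42, 5.59 and 4.64 CPM at 24 h. It reached 12.1, 17.2 and 12.9 CPM at 72 h and was at 8.13, 6.91 and 9.16 CPM at 1 week. The 72 h libraries lay above all others, and the NSP libraries lay below all others. The changes from NSPs were 1.84 at 72 h (SE 0.24, adjusted p = 3.37e-06) and 1.03 at 1 week (SE 0.24, adjusted p = 0.00121) on the log2 scale, and 0.50 at 24 h (adjusted p = 0.0955), which did not pass. With at least 10 counts required in every library the 24 h change was 0.60 (adjusted p = 0.0497).

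From 24 h to 72 h *Fgf2* rose by 1.34 on the log2 scale (SE 0.24, adjusted p = 0.000371). It then fell by 0.81 to 1 week (SE 0.23, adjusted p = 0.0391), a call lost without any 1 week library or without 72 h replicate 2 or 3 (adjusted p from 0.069 to 0.225). With TNF *Fgf2* was at 8.63, 5.29 and 4.89 CPM at 24 h, overlapping with untreated cells (difference 0.18, 95% interval -0.30 to 0.65, and -0.13 without both TNF replicates numbered 1). At 72 h with TNF it was at 11.4, 8.76 and 7.76 CPM, each below every untreated library. That difference was -0.59 (-1.04 to -0.15), with an adjusted p of 0.11, and -0.78 (adjusted p = 0.0243) without both TNF replicates numbered 1. Between 24 h and 72 h of TNF the difference of *Fgf2* was 0.57 (adjusted p = 0.12). It was called at 0.91 (adjusted p = 0.0111) without 24 h TNF replicate 1 and at 0.71 (adjusted p = 0.0473) without both TNF replicates numbered 1. *Nudt6* overlaps 9.4% of the *Fgf2* exon bases on the opposite strand and had 6 to 55 counts against 50 to 280 for *Fgf2*. The strand setting of the counting is not given in the sources used here, so reads from this overlap cannot be assigned to either gene with certainty.

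*Gdnf*, best known as a survival factor for dopaminergic and motor neurons, was rare in all conditions and highest with TNF. *Gdnf* (ENSMUSG00000022144, 15:7810846-7837575, plus strand) had 0, 1 and 2 counts in NSPs, 4, 3 and 6 at 24 h, 6, 5 and 7 at 72 h, and 1, 1 and 1 at 1 week. With TNF it had 26, 20 and 16 counts at 24 h and 13, 18 and 10 at 72 h. At both times every TNF library lay above every untreated library.

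At 24 h *Gdnf* was at 1.36 ± 0.366 CPM with TNF and 0.32 CPM without it (SD, n = 3). The log2 change was 2.12 (SE 0.43, adjusted p = 0.00736), and the ratio of summed counts was 4.47 (95% counting interval 2.44 to 8.87). Leaving out 24 h replicate 2 gave 1.75 (adjusted p = 0.0756), and leaving out each of the other 5 libraries compared kept the call. At 72 h the log2 change was 1.07 (95% interval 0.24 to 1.90, adjusted p = 0.123), which did not pass. The difference between the TNF changes at 72 h and 24 h was -1.05 (SE 0.62, adjusted p = 0.594), so a change of the TNF effect with time was not shown.

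Without TNF, *Gdnf* rose from NSPs to 24 h with a ratio of summed counts of 5.15 (1.41 to 28.2, adjusted p = 0.011) and to 72 h with a ratio of 6.49 (1.89 to 34.4, adjusted p = 0.00278). The 24 h call was lost without NSP replicate 1 (adjusted p = 0.0525) or 24 h replicate 3 (adjusted p = 0.0801). From 72 h to 1 week *Gdnf* fell with a ratio of 0.144 (0.0272 to 0.494, adjusted p = 0.0184), which was not called with DESeq2 (adjusted p = 0.0549), without any of the 1 week libraries or without 72 h replicate 3 (adjusted p from 0.0523 to 0.0945). These ratios rest on as few as 3 counts over a condition.

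*Lif*, the cytokine that acts on LIFR and gp130, was the other factor higher with TNF. *Lif* (ENSMUSG00000034394, 11:4257557-4272514, plus strand) had 9, 5 and 10 counts in NSPs, 4, 9 and 6 at 24 h, 2, 14 and 11 at 72 h, and 23, 15 and 11 at 1 week. With TNF it had 51, 16 and 21 counts at 24 h and 32, 17 and 18 at 72 h. In CPM the TNF libraries were at 3.21, 1.19 and 1.24 at 24 h and at 1.80, 0.987 and 1.13 at 72 h, above every untreated library of the same time. The highest library at each time was replicate 1.

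The log2 change of *Lif* with TNF was 2.10 at 24 h (SE 0.50, adjusted p = 0.0216) and 1.22 at 72 h (95% interval 0.28 to 2.17, adjusted p = 0.121). The 24 h call did not hold without 24 h TNF replicate 1 (1.45, adjusted p = 0.162), nor without any of the untreated libraries (adjusted p from 0.0778 to 0.115). It was also lost in a fit of the 24 h libraries alone (adjusted p = 0.0519). Differences of *Lif* between the untreated conditions did not pass the test, with log2 values from -0.10 at 24 h against NSPs to 0.90 at 1 week against NSPs (95% interval -0.09 to 1.89).

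Single markers of other cell types also differed with TNF at 24 h. The summed microglia and macrophage markers were at 8.08 to 18 CPM with TNF and 4.86 to 6.27 CPM without it, with 7 of the 10 markers under 10 counts and *C1qa* and *C1qb* at 0 in both. *Cd68* was the marker of this list that passed the test, of 3 tested, at 8.21 ± 6.15 against 1.98 ± 0.512 CPM (SD, n = 3). Its log2 change was 2.06 (adjusted p = 0.0409), and 1.24 (adjusted p = 0.0283) without both TNF replicates numbered 1. The summed endothelial markers were at 10.1 to 11.3 against 6.57 to 6.82 CPM, and *Vwf*, the 1 of 4 tested that passed, went from 1.61 to 6.24 CPM. *Kdr* was at 3.67 CPM without and 2.74 CPM with TNF, a difference of -0.43 (adjusted p = 0.758), which was -0.05 with the TNF replicates numbered 1 left out, and *Cdh5* was at 0 in both. Among the astrocyte markers *Gja1* was at -0.42 (adjusted p = 0.817) with all libraries and at -1.83 (adjusted p = 0.000735) with those replicates left out, and *Aldoc* went from -0.65 (adjusted p = 0.0417) to -0.51 (adjusted p = 0.138). Their part in the rises of *Gdnf* and *Lif* was not tested.

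*Cntf* and *Il6*, the other 2 gp130 cytokines, gave little signal. *Cntf* (ENSMUSG00000079415, 19:12763660-12765632, minus strand) had 12, 21 and 16 counts in NSPs, 18, 11 and 5 at 24 h, 17, 14 and 15 at 72 h, and 12, 14 and 3 at 1 week. With TNF it had 11, 7 and 15 counts at 24 h and 10, 13 and 10 at 72 h. All conditions next to each other in level overlapped, and no comparison passed the test. At 1 week against NSPs the difference was -0.86 (adjusted p = 0.0924), and -1.24 (adjusted p = 0.0438) without 1 week replicate 2. The TNF difference was -0.16 at 24 h (95% interval -1.02 to 0.71) and -0.59 at 72 h (-1.42 to 0.24). Of the *Cntf* exon bases 78.9% are shared with *Zfp91* on the same strand, a gene with 2172 to 4312 counts, so the *Cntf* counts are uncertain whatever the strand setting.

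*Il6* (ENSMUSG00000025746, 5:30013114-30019981, plus strand) had 13 counts over all 18 libraries. It was at 0 in the 3 NSP and the 3 24 h libraries, and had 1, 0 and 1 counts at 24 h with TNF, 0, 1 and 4 at 72 h, 2, 1 and 0 at 72 h with TNF, and 2, 0 and 1 at 1 week. A count of 0 over the 3 NSP libraries allows up to 0.0582 CPM (3 counts), and over the 24 h libraries up to 0.0691 CPM. The pooled level at 24 h with TNF, from 2 counts, was 0.0432 CPM, under the 0.0649 CPM that 3 counts would give there. These limits cover counting error only. No rise of *Il6* to the 1.36 CPM of *Gdnf* or the 1.88 CPM of *Lif* at 24 h with TNF was seen. A rise by a few counts could not be told from none at this depth.

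**Figure D2:**
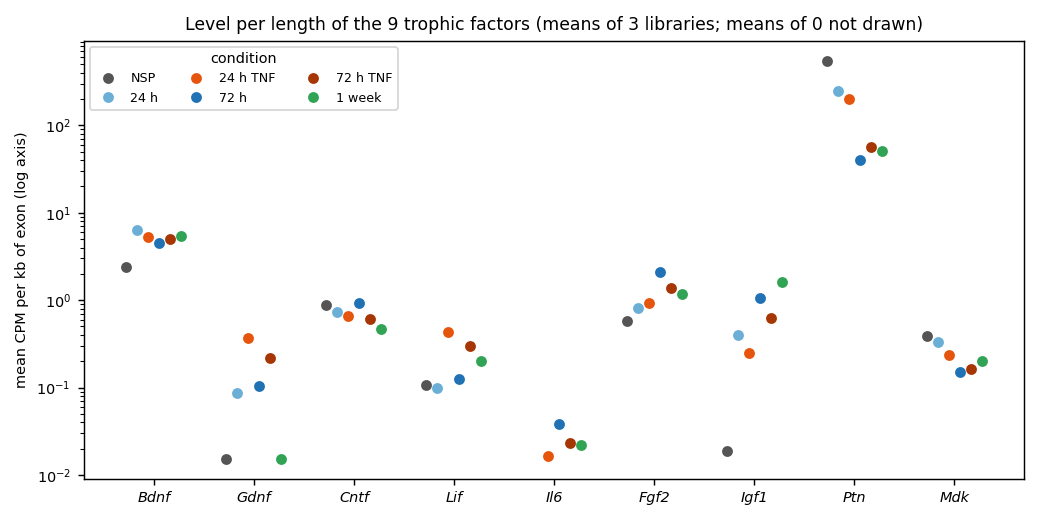
Mean CPM per kb of exon (log axis) of the 9 factors, coloured by condition; each point is the mean of 3 libraries and means of 0 are not drawn. *Ptn* lay above the other factors in every condition, at 550 in NSPs and 50.8 at 1 week.

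Levels of different genes were compared per kb of annotated exon. On this scale of CPM per kb, *Ptn* was at 550 ± 41.7 in NSPs, followed by *Bdnf* at 2.42 ± 0.267, *Cntf* at 0.878 ± 0.184 and *Fgf2* at 0.579 ± 0.0984 (SD, n = 3). The place of *Cntf* in the order is uncertain in every condition, because 78.9% of its exon bases are shared with *Zfp91* on the same strand. At 1 week *Ptn* was still first at 50.8 ± 5.82, followed by *Bdnf* at 5.45 ± 0.458, *Igf1* at 1.61 ± 0.521 and *Fgf2* at 1.19 ± 0.166. *Igf1* thus stood near the bottom of the order in NSPs, at 0.0189, and behind *Ptn* and *Bdnf* at 1 week. *Gdnf* was at 0.0153 in NSPs, 0.369 ± 0.0996 at 24 h with TNF and 0.0154 at 1 week.

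**Figure D3:**
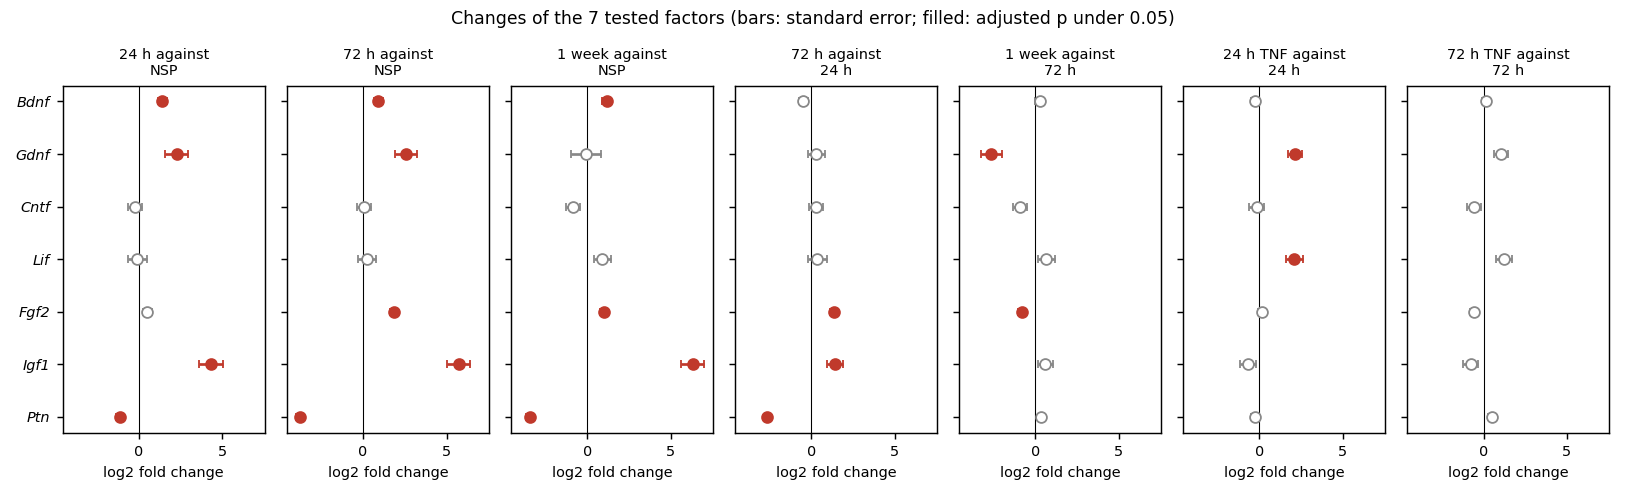
Log2 fold change (points) with its standard error (bars) of the 7 tested factors in 7 comparisons, the first condition relative to the second; filled red points passed an adjusted p of 0.05. *Igf1* rose and *Ptn* fell in all 3 comparisons with NSPs, and *Gdnf* and *Lif* are the filled points with TNF at 24 h. The fitted values of *Gdnf* against NSPs and at 1 week rest on 0 to 2 counts per library in the low group.

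The number of factors that passed the test is given beside the share of all tested genes that did. Against NSPs, 4 of the 7 tested factors passed at 24 h, 5 at 72 h and 4 at 1 week, while 52.7%, 55.3% and 58.6% of all tested genes did. Among all genes 27.2% rose and 25.5% fell at 24 h, 28.1% rose and 27.2% fell at 72 h, and 29.6% rose and 29.1% fell at 1 week. Between 24 h and 72 h *Igf1* and *Fgf2* rose and *Ptn* fell, against 24.8% of all genes called (12.2% up, 12.6% down). Between 72 h and 1 week 2 factors fell and 0 rose, against 6.63% of all genes called (2.68% up, 3.96% down). With TNF 2 of 7 passed at 24 h, both upward, against 3.5% of all genes (2.18% up, 1.32% down). *Gdnf* and *Lif*, the 2 that passed, met the filter on low counts mainly through the TNF conditions, so the 2 shares are not alike and no more is read from them. At 72 h edgeR and DESeq2 each called 0 of 7, 4 had an unadjusted p under 0.05 (*Fgf2*, *Lif*, *Gdnf* and *Ptn*), and 9.56% of all genes were called (4.35% up, 5.21% down). From 24 h to 72 h of TNF only *Ptn* passed, downward, against 13.3% of all genes (5.38% up, 7.93% down). For the difference of the TNF effect between the times both tools called 0 of 7, against 0.458% of all genes called by edgeR (0.135% up, 0.324% down), and 2 (*Ptn* and *Fgf2*) had an unadjusted p under 0.05.

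Of 19 listed receptor genes 18 were tested, and 8 rose and 3 fell at 24 h, 6 rose and 6 fell at 72 h, and 7 rose and 6 fell at 1 week against NSPs. Of all tested genes 52.7%, 55.3% and 58.6% passed in these comparisons, so nothing particular to the receptors is read from these counts. *Il6st*, which encodes gp130, had a mean of 162 CPM in NSPs and of 1200, 1950 and 1330 CPM at the 3 later times, with a log2 rise of 3.59 at 72 h (SE 0.15, adjusted p = 3.17e-12). *Il6ra*, the IL-6 binding subunit, rose by 3.79 at 72 h (SE 0.63, adjusted p = 5.7e-05). The receptors that bind CNTF and LIF beside gp130 went the other way, with *Cntfr* at -1.70 (adjusted p = 0.00283) and *Lifr* from 436 to 166 CPM at 72 h, the latter named after its values were seen.

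Among the other receptors, *Gfra1*, which binds GDNF, rose by 1.03 at 72 h (adjusted p = 0.000117), and *Ntrk2*, which encodes the BDNF receptor TrkB, fell by 0.70 at 24 h (adjusted p = 0.00375) and then rose by 1.04 to 72 h (adjusted p = 0.000378), to 1240 CPM against 974 in NSPs. *Fgfr2* rose by 1.71 at 24 h and *Fgfr1* by 1.33 at 1 week, while *Fgfr3* fell at all 3 times, by 1.60 at 72 h (adjusted p = 2.51e-07). *Sdc3*, a syndecan that binds pleiotrophin, fell with *Ptn*, by 2.94 at 72 h (SE 0.21, adjusted p = 1.11e-09). *Alk*, a receptor kinase linked to pleiotrophin and midkine, rose by 2.86 at 24 h (adjusted p = 1.2e-05) and was back at 0.624 CPM at 72 h against 1.22 in NSPs. The median log2 change of the tested receptors at 72 h was 0.08, beside 0.05 over all tested genes.

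**Figure D4:**
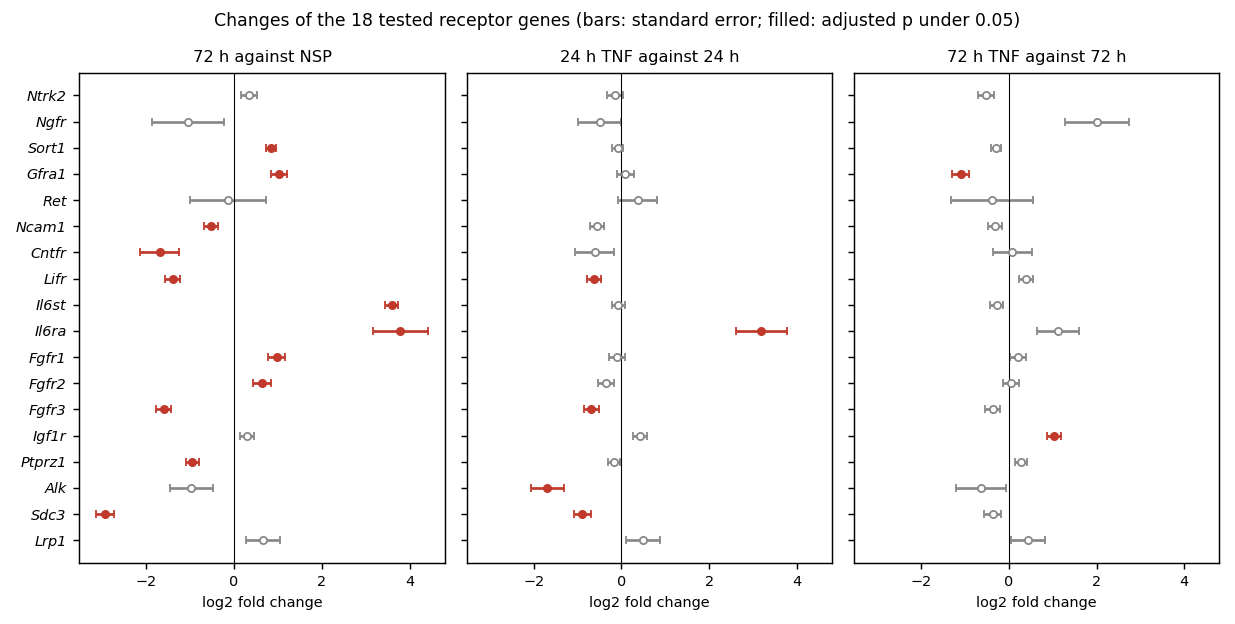
Log2 fold change (points) with its standard error (bars) of the 18 tested receptor genes at 72 h against NSPs and with TNF at 24 h and 72 h; filled red points passed an adjusted p of 0.05. *Il6st* and *Il6ra* rose most at 72 h, and *Il6ra* rose by 3.19 with TNF at 24 h.

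With TNF, 1 receptor rose and 4 fell at 24 h, beside 3.5% of all genes called, and 1 rose and 1 fell at 72 h, beside 9.56%. *Il6ra* rose from 0.904 ± 0.505 to 8.28 ± 7.28 CPM (SD, n = 3), a log2 change of 3.19 (SE 0.58, adjusted p = 0.00307) with a lowest TNF library of 4.03 CPM and a highest of 16.7. *Alk* (-1.69, adjusted p = 0.0133), *Sdc3* (-0.89, adjusted p = 0.0127) and *Fgfr3* (-0.69, adjusted p = 0.0238) fell, and the last of the 4 was *Lifr* (-0.62, adjusted p = 0.0395). Without both TNF replicates numbered 1 *Il6ra* was at 2.17 (adjusted p = 0.00228), 1 receptor rose and 2 fell, and *Fgfr3* (adjusted p = 0.0915) and *Lifr* (adjusted p = 0.0897) were no longer called. At 72 h with TNF *Igf1r*, the IGF1 receptor, rose by 1.04 (SE 0.16, adjusted p = 0.000262) and *Gfra1* fell by 1.10 on the log2 scale (SE 0.19, adjusted p = 0.000645). Without both TNF replicates numbered 1 these calls remained and 2 receptors rose and 4 fell at 72 h. Cell type markers also differed with TNF at 72 h. The astrocyte markers *Gfap* (-2.31, adjusted p = 0.0128), *S100b* (-1.64, adjusted p = 1.66e-05) and *Aldoc* (-1.57, adjusted p = 1.31e-05) were lower, and their list summed to 3490 to 4890 CPM with TNF against 5700 to 8140 CPM without it. Of 7 tested neuron markers 1 passed, *Rbfox3*, which was lower. The oligodendrocyte lineage marker *Cspg4* was higher and *Cnp* lower, and the endothelial marker *Vwf* was higher (2.81, adjusted p = 5.96e-07) and *Kdr* lower (-2.27, adjusted p = 0.00318). With the TNF replicates numbered 1 left out, *Rbfox3* was at -1.52 (adjusted p = 0.0597) and *Cspg4* at 1.07 (adjusted p = 0.019), against -1.86 and 2.02 with all libraries. The neuron marker *Tubb3* went the other way, from 0.60 (adjusted p = 0.368) with all libraries to 0.89 (adjusted p = 0.0299) without those replicates. Under the same setting *Gfap* was at -3.45 (adjusted p = 5.06e-06), and *Gja1*, not called with all libraries (-1.35, adjusted p = 0.132), was lower by test at -2.09 (adjusted p = 7.78e-05). The part of these markers in the 72 h TNF differences was not tested.

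Of 20 other secreted trophic factors 13 were tested, and 4 rose and 3 fell at 24 h, 6 rose and 3 fell at 72 h, and 7 rose and 3 fell at 1 week against NSPs, beside 52.7%, 55.3% and 58.6% of all genes called. *Nrtn* (neurturin), a relative of GDNF, rose by 5.22 at 72 h (adjusted p = 2.88e-07) and 6.12 at 1 week (adjusted p = 2.12e-08), from 0.115 to 8.56 CPM. *Hbegf*, a ligand of the EGF receptor, rose from 15.2 to 105 CPM at 1 week (2.79, adjusted p = 2.37e-07), and *Pdgfa*, a ligand for glial progenitors, from 12.9 to 43.8 CPM (1.77, adjusted p = 4.62e-08). *Vegfa*, the vascular growth factor, fell from 75.1 to 6.38 CPM at 72 h (-3.56, adjusted p = 0.000223). With TNF at 24 h *Pdgfa* alone of the 13 passed, with a rise of 1.32 (SE 0.17, adjusted p = 0.000143).

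Of 16 listed genes that process or bind the factors 14 were tested, and relative to NSPs 5 rose and 5 fell by 24 h, 5 rose and 4 fell by 72 h, and 5 rose and 6 fell by 1 week. These 10, 9 and 11 of 14 stand beside the same shares of all genes, 52.7%, 55.3% and 58.6%. *Igfbp4* and *Igfbp2*, which encode IGF binding proteins, fell at 72 h, with log2 changes of -5.47 (adjusted p = 3.43e-09) and -3.35 (adjusted p = 1.63e-06). *Igfbp2* then rose by 2.17 to 1 week (adjusted p = 0.00201), and *Igfbp5*, another binding protein, was at 181 CPM at 1 week against 102 CPM in NSPs (0.83, adjusted p = 0.0321). The heparan sulphate carriers *Sdc2* and *Sdc4* rose at 72 h against NSPs, by 2.43 (adjusted p = 1.04e-09) and 1.79 (adjusted p = 4.69e-08). With TNF 1 gene rose and 2 fell at 24 h, beside 3.5% of all genes called, and 1 rose and 5 fell at 72 h, beside 9.56%. Those that fell at 72 h included *Igfbp5* (-2.11, adjusted p = 0.00039), the proprotein convertase *Pcsk6* (-1.41, adjusted p = 0.000666) and *Sdc2* (-0.92, adjusted p = 0.00105). At 24 h *Sdc4* rose by 1.10 (adjusted p = 0.000562) and *Pcsk6* and *Gpc1* fell. Without both TNF replicates numbered 1, 2 rose and 3 fell at 24 h and 2 rose and 5 fell at 72 h, where *Sdc1*, the gene that rose with all libraries, was at 0.52 (adjusted p = 0.255).

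Genes known to respond to these receptors moved in both directions with differentiation and only upward with TNF where they passed the test. Of 12 listed genes 11 were tested, and at each of the 3 times 3 were higher and 8 lower than in NSPs, beside 52.7%, 55.3% and 58.6% of all genes called. The 3 higher ones were genes induced by JAK and STAT signalling, with *Osmr* (the oncostatin M receptor) at 5.15 (SE 0.37, adjusted p = 1.34e-09), *Socs3* at 2.64 (adjusted p = 8.53e-09) and *Cish* at 1.36 (adjusted p = 0.00495) at 72 h. Among the lower ones were genes induced by ERK, the kinase downstream of FGF and EGF receptors, with *Spry4* at -4.95 (SE 0.35, adjusted p = 1.15e-09), *Spry1* at -4.06 (adjusted p = 2.34e-07) and *Dusp6* at -2.73 (adjusted p = 6.03e-05). The NSP medium contained EGF and the differentiation medium did not, so the change of medium and differentiation cannot be told apart in these comparisons. With TNF at 24 h 3 rose and 0 fell, beside 3.5% of all genes called, with *Osmr* at 2.04 (SE 0.30, adjusted p = 0.000453), *Socs3* at 1.12 (adjusted p = 0.00316) and *Spred1* at 0.58 (adjusted p = 0.0368). At 72 h 4 rose and 0 fell, beside 9.56% of all genes called, among them *Spry4* at 1.97 (adjusted p = 0.000774), *Dusp6* at 1.5 (adjusted p = 0.0387) and *Dusp4* at 1.34 (adjusted p = 0.00412). Without both TNF replicates numbered 1, 6 rose and 0 fell at each time, with *Osmr* at 1.53 (adjusted p = 2.5e-05) at 24 h.

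The genes with the most similar course across the 18 libraries were found by Pearson's r of log2 CPM among 12622 protein-coding genes. They were *Nlk* (0.985) and *Lamb1* (0.984) for *Ptn*, *Negr1* (0.975) and *Sparc* (0.972) for *Igf1*, *Ctnna2* (0.961) and *Gxylt2* (0.919) for *Bdnf*, and *Dcaf8* (0.947) and *Trim68* (0.946) for *Fgf2*. For *Gdnf* they were *Csmd1* (0.959) and *Casp4* (0.953), and for *Lif* *Gch1* (0.836) and *Exoc4* (0.824). *Cntf* had no close partner, with *Spag4* at 0.65 and *Nr2c1* at 0.609. These values describe 18 libraries that share conditions and depth and carry no test.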

How the data were processed

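RNA-seq was carried out on 18 libraries in 6 conditions, with the condition of each taken from its labels. The authors prepared stranded libraries and deposited raw read counts per gene without normalization. The submitters' processing notes name FastQC, Trim Galore, STAR, SAMtools, featureCounts and the build mm10, and the study tested with DESeq2. Tool versions, how strand was treated in counting and what was done with multi-mapping reads are not given in the sources used here. For 72 h replicate 3, the table's column name has another number than the label.

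Positions and names came from GENCODE M21 on GRCm38, in which 54809 of 54838 identifiers were found. Library totals ranged from 12509693 to 22549627, and intervals and floors cover counting error only. Replicates differed by more than sampling noise, so none was counted as a duplicate. edgeR 4.0.16 (R 4.3.3) computed TMM factors, filtered low counts (minimum count 10) and fitted its quasi-likelihood test to all 18 libraries with a mean per condition, with Benjamini-Hochberg adjustment over 20067 genes calling genes at an adjusted p under 0.05. The common dispersion corresponded to a coefficient of variation of 0.18. The SE of a log2 change is its absolute value divided by the root of the test's F statistic. Its intervals are this SE times the normal quantile, so they can differ from the test. For *Fgf2* at 24 h against NSPs the interval was 0.02 to 0.98, with an unadjusted p of 0.0569 in the quasi-likelihood test. Ratios of summed counts have exact 95% intervals. The pipeline was tested on simulated data. BLAST 2.17.0 searched for similar transcripts, and Python 3.11.15 with pandas 2.3.3 and matplotlib 3.10.9 was used for tables and figures.

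The 9 factors, the gene lists and the alternatives were chosen with earlier results of these data known. Named beside the factors are up to 3 called genes with the largest change each way per list and comparison with a mean of at least 1 CPM, the 2 genes most like each tested factor, and overlapping genes. Alternatives were DESeq2 1.42.0, RLE normalization, other filters, a fit of only the groups compared, a replicate block and leaving out each library. Leaving out both TNF replicates numbered 1, for the factors and the lists, was chosen after seeing the data. Replicate numbers paired the samples only for 72 h TNF against 24 h TNF, where same-numbered libraries deviated together (r = 0.291, 0.255 and 0.266).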

Additional observations from a re-analysis of the deposited data

How the results depend on the processing

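Low counts set a limit: *Gdnf*, *Lif* and *Cntf* had at most 51 counts in a library. With at least 10 counts required in every library only *Bdnf*, *Fgf2* and *Ptn* could be tested, and the number of factors called was 3 for 72 h against NSPs, 1 for 1 week against 72 h and 0 for TNF at 24 h. For 1 week against 72 h the number was 1 with DESeq2, 1 in a fit of only these groups and 0 with a replicate block that leaves 72 h replicate 3 unpaired. For TNF at 24 h it was 1 in a fit of only these groups. With no filter, a fit whose adjusted p-values are not like the others, it was 2 for TNF at 72 h, 2 for 72 h TNF against 24 h TNF and 1 for the interaction. Without both TNF replicates numbered 1 it was 1 at 24 h, 3 at 72 h and 3 for 72 h TNF against 24 h TNF. The cause of these changes was not tested beyond the number of genes or samples kept.

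Under that last setting the direction turned for *Fgf2* with TNF at 24 h (-0.13), *Bdnf* at 72 h TNF against 24 h TNF (0.23) and the *Igf1* interaction (0.17), none of them called. Leaving out 1 library at a time, the number of factors called ranged from 3 to 4 for 24 h, from 5 to 6 for 72 h and from 4 to 5 for 1 week against NSPs, was 2 throughout for 72 h against 24 h, and ranged from 0 to 2 for 1 week against 72 h. It ranged from 0 to 2 for TNF at 24 h, from 0 to 1 at 72 h and from 1 to 2 for 72 h TNF against 24 h TNF, and was 0 throughout for the interaction. In several of these fits, and without both TNF replicates numbered 1, 8 factors passed the filter instead of 7. A factor too low to test in the main fit can thus enter these counts. Leaving out 1 library also turned the direction of values that were not called. The log2 differences then ranged from -0.39 to 0.09 for *Lif* and from -0.84 to 0.02 for *Cntf* at 24 h against NSPs, and from -0.21 to 0.63 for *Lif* and from -0.17 to 0.22 for *Cntf* at 72 h against NSPs. They ranged from -0.56 to 0.75 for *Gdnf* at 1 week against NSPs, and from -0.04 to 0.73 for *Gdnf* and -0.11 to 0.73 for *Lif* at 72 h against 24 h. With TNF they ranged from -0.15 to 0.33 for *Fgf2* and from -0.45 to 0.43 for *Cntf* at 24 h, and from -0.14 to 0.50 for *Bdnf* at 72 h. For 72 h TNF against 24 h TNF they ranged from -0.35 to 0.32 for *Bdnf*, from -0.26 to 0.08 for *Cntf* and from -0.81 to 0.14 for *Lif*, and for the *Igf1* interaction from -0.44 to 0.41. Of these, *Bdnf* with TNF at 72 h passed the threshold once, without 72 h TNF replicate 1. The replicate block over all libraries gave the same number of called factors as the fit without it in every comparison, for example 2 for TNF at 24 h and 1 for 72 h TNF against 24 h TNF. The 1016 recomputed values of single factors mix test results with CPM levels under other normalizations, and 946 were counted as unchanged. A test result was unchanged if it kept its direction and its side of the threshold, and a level if it stayed within its SD. Among the test results 26 turned direction, 29 lost a call and 15 gained one.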
